A study of Mus musculus with 20 samples.

Results

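The H3K27me3 peaks of proliferating SS fibroblasts were compared with those of proliferating WT fibroblasts on chromosomes 1 to 19. The members are all peaks of those 2 lists on these chromosomes, chosen by sample label and chromosome alone: 130883 in WT and 166592 in SS cells, 297475 together, of 4480164 peaks in the 10 lists of the series. Both cultures were mouse embryonic fibroblasts, primary cells of C57BL/6 embryos at stage E13.5, taken at passage 4 from medium with 10% serum and labelled as growing asynchronously. The labels set them apart by genotype, given as WT or SS without spelling out the mutant allele. The sex of the embryos, their number and any pooling are not given in the labels used here. The treatment field of every sample carries the same serum starvation step, 0.1% serum for 72 h, whereas titles and growth condition call these cultures proliferating. Each genotype was assayed in 1 library, so the spread between replicates is unknown and no p-value across samples is given.

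H3K27me3 is histone H3 trimethylated on lysine 27. Polycomb repressive complex 2 deposits it through its catalytic subunit Ezh2 and binds the finished mark through its Eed subunit, so the mark can extend from the site where the complex is recruited. In differentiated cells such as fibroblasts it lies in broad domains over silent developmental regulator genes, with smaller islands at other silent promoters and low levels between them. The series title concerns the silencing of endogenous retroelements by a tumour suppressor, and the series also holds libraries of pRb, the retinoblastoma protein. No mm9 annotation or sequence was used, so regions are named by position, counted from 1 in mm9, and not by gene.

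The mark covered more of every autosome in SS cells, and the excess was spread over all peak lengths. Peaks covered 284 Mb in SS and 235 Mb in WT cells, a ratio of 1.21, which is 11.8% and 9.73% of the 2415 Mb between the first and last peak of any list on each chromosome. Peak number was 1.27 times that of WT. The median peak was slightly shorter in SS cells, 705 bp against 735 bp, and the mean 1704 bp against 1796 bp. Both lists had the same shortest length, 155 bp, and the same smallest gap between neighbouring peaks, 621 bp. Peaks of that shortest length made up 8.97% of the SS list and 6.84% of the WT list.

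The 2 libraries also differed in values that depend on sequencing depth and, apart from these, in the sex chromosomes. At a fold enrichment near 2.5 (up to 2.55), the ratio of the mark over local background that the authors' caller gave each peak, the median -log10 p-value was 3.20 in WT and 3.61 in SS cells. At a fold near 3 (up to 3.05) it was 4.70 and 5.27, and in the lowest window, a fold of 2 to 2.05 with 27 and 71 peaks, it ran the other way, 3.10 and 2.59. At a given fold a Poisson p-value is smaller where more reads lie under the peak. The lowest -log10 q-value was nearly the same, 1.04 in WT and 1.09 in SS cells. The X chromosome, which is outside the members, took 5.35% of all covered length in WT and 0.721% in SS cells. It held 12369 peaks in WT and 2163 in SS cells, whereas every autosome held more peaks in SS cells. Chromosome Y held 0 peaks in the WT and 38 in the SS list. The part of depth and of the sex chromosomes in the results below was not tested, and with 1 library per genotype neither can be told apart from genotype.

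Among the length classes, peaks under 500 bp showed the largest relative excess in SS cells, and domains over 5 kb the largest excess in length. Peaks under 500 bp numbered 44573 in WT and 60102 in SS cells, a ratio of 1.35. Between 500 bp and 1 kb there were 34558 and 43915, a ratio of 1.27. Islands of 1 to 5 kb numbered 41692 and 50872, a ratio of 1.22. Domains over 5 kb numbered 10060 and 11703, a ratio of 1.16. The number ratio thus fell step by step across these classes, while the covered length rose from class to class. Within domains over 5 kb the number ratio did not keep falling with length. It was 1.19 for peaks longer than 10 kb and 1.22 for those longer than 20 kb. For peaks longer than 50 kb it was 1.36, from 80 WT and 109 SS peaks. For those longer than 100 kb it was 1.22, from 9 and 11 peaks. Domains over 5 kb were 7.69% of WT and 7.02% of SS peaks, yet they held 46.0% and 44.9% of the covered length. Peaks under 500 bp, 34.1% and 36.1% of the lists, held 5.36% and 5.78%.

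Of the 48.7 Mb by which the SS total exceeded that of WT, domains over 5 kb accounted for 19.3 Mb (39.7%) and islands of 1 to 5 kb for 18.9 Mb (38.8%). The classes from 500 bp to 1 kb and under 500 bp added 13.7% and 7.80%. The direction of the excess in short peaks depended on list length. When only the 130883 peaks of highest -log10 q-value were kept in each list, the number ratio was 0.951 under 500 bp and 0.868 between 500 bp and 1 kb, whereas it was 1.12 for islands of 1 to 5 kb and stayed 1.16 for domains over 5 kb. This setting left the WT list whole and dropped only SS peaks of lowest -log10 q-value, so no ratio could rise. It kept 11702 of the 11703 SS domains over 5 kb, but 42401 of the 60102 SS peaks under 500 bp. With a common cutoff of 2.47 on the -log10 q-value, which carries any difference in depth, the 4 ratios were 2.95, 3.36, 2.42 and 1.30 from the shortest to the longest class. At a common fold cutoff of 2.63 they were 1.54, 1.46, 1.30 and 1.17. Of the 4 classes, domains over 5 kb varied least in ratio across these settings.

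**Figure D1:**
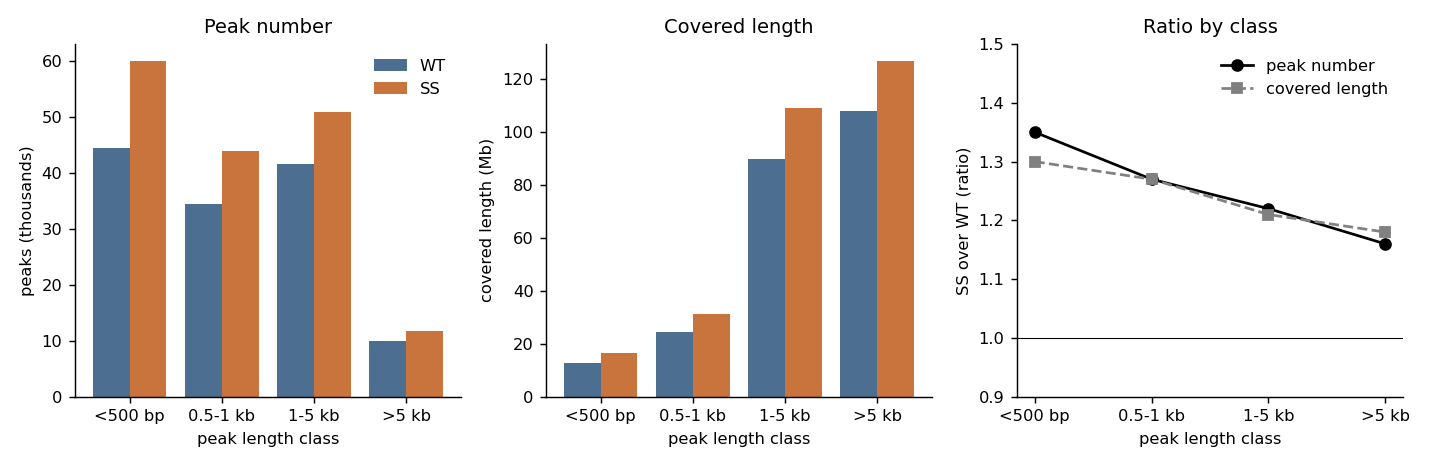
Peak number (left, in units of 1000), covered length in Mb (middle) and the ratio of SS to WT (right) for 4 peak length classes on chromosomes 1 to 19, with 1 library per genotype and no error bar. The ratio of peak number fell from 1.35 in the shortest to 1.16 in the longest class, while most of the covered length lay in peaks over 1 kb.

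The excess in SS cells held through the longest domains. Peaks longer than 10 kb numbered 3356 in WT and 3987 in SS cells, those longer than 20 kb 863 and 1053, and those longer than 50 kb 80 and 109. Ranked by length, the 100th longest peak measured 47389 bp in WT and 51075 bp in SS cells, and the 1000th 18468 and 20510 bp. The 3 longest peaks of either list were called in both genotypes. The longest of both lists lay on chromosome 15, where the WT peak 102723644-102908613 (184970 bp) fell wholly inside the SS peak 102702120-102909341 (207222 bp), which held 5 WT peaks in all. On chromosome 11 the second longest SS peak, 96088029-96247809, lay wholly inside the WT peak 96084060-96248997, and measured 159781 bp beside 164938 bp; with a second SS peak, 98.5% of the WT peak was covered. On chromosome 7 a WT peak of 162581 bp at 86631397-86793977 was called as 3 SS peaks, the longest of them 139840 bp, which together covered 99.1% of it. On chromosome 9 the reverse was seen: the SS peak at 107243330-107392803, 149474 bp long, joined 4 WT peaks, the longest of them 69550 bp, which covered 98.1% of it. Nearly all sequence of these longest peaks was thus marked in both genotypes, and the number of pieces differed.

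Fold enrichment rose with domain length in both lists. The median in WT cells was 2.51 under 500 bp, 2.47 between 500 bp and 1 kb, 2.69 for islands of 1 to 5 kb and 3.25 for domains over 5 kb. In SS cells the same medians were 2.54, 2.49, 2.73 and 3.36. The spread was wider in long domains, with quartiles of 2.96 and 3.79 in WT and of 3.05 and 3.95 in SS cells, against 2.34 and 2.75 and 2.34 and 2.82 under 500 bp. These folds are the authors' values for single peaks and describe peaks within a list. A fold of at least 4 was given to 20.5% of WT and 24.1% of SS domains over 5 kb, but to 0.222% and 0.546% of peaks under 500 bp. Among domains over 5 kb, Spearman's rho between fold and length was 0.495 in WT and 0.498 in SS cells, over 10060 and 11703 peaks of 1 library each. Under 500 bp it was negative, -0.262 and -0.248. The relation was therefore not one line: fold was lowest near 300 to 700 bp, with medians of 2.43 and 2.44 in WT and 2.44 and 2.45 in SS cells, and rose to 5.24 and 5.64 in domains of 50 kb or more.

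**Figure D2:**
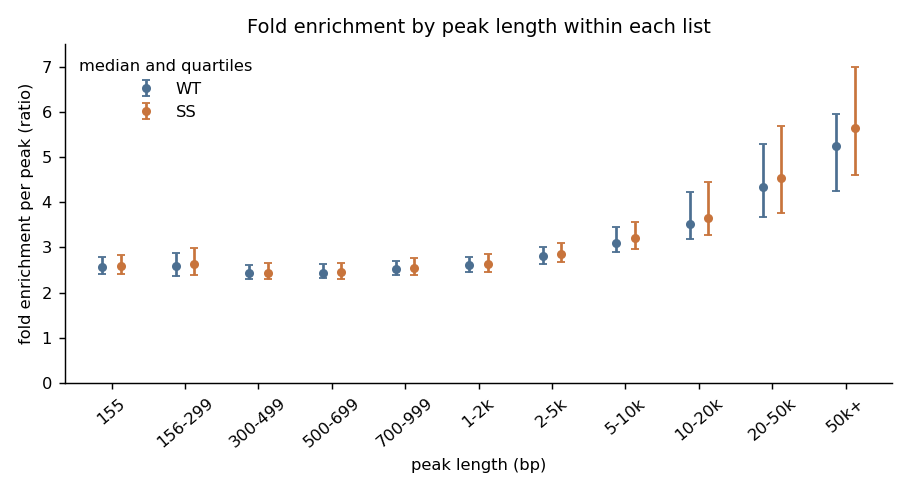
Median and quartiles (bars) of the authors' fold enrichment per peak, a ratio, against peak length in 11 bins for the WT and SS lists on chromosomes 1 to 19. Both lists are lowest near 300 to 700 bp and rise to medians of 5.24 and 5.64 in peaks of 50 kb or more.

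The peak with the highest fold in each length class lay at a place called in both genotypes. The strongest WT domain over 5 kb lay on chromosome 9 at 121128312-121149337 with a fold of 10.6, where the SS peak at 121128464-121149376 had 12.8. The SS list was led by an 87845 bp domain on chromosome 8 at 126061175-126149019 with a fold of 12.9, set beside a WT peak of 90044 bp with 10.4. In the class of 1 to 5 kb both lists were led by the same place on chromosome 4, at 149183546-149186376 in WT with 10.6 and at 149183643-149187410 in SS cells with 9.20. Between 500 bp and 1 kb the leaders were 2 different places: chromosome 17 at 35517394-35517968, with 5.98 in WT and 7.05 in the SS peak there, and chromosome 16 at 86820833-86821536, with 7.66 in SS and 4.67 in the WT peak there. Under 500 bp they were also different, with the wider gap on chromosome 1 at 56839048-56839328, listed at 10.5 in SS and 2.82 in WT cells. The WT leader of that class, on chromosome 17 at 4626151-4626608, had 8.28 in WT and 6.34 in SS cells. A single SS peak had a fold of 0.121, the only value below 1 in either list.

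Whether the genotypes marked the same places depended strongly on peak length. An overlap of 1 bp or more with the SS list was found for 68.9% of the WT peaks (95% Wilson interval 68.6 to 69.1), and with the WT list for 50.2% of the SS peaks (49.9 to 50.4). The intervals hold only the counting error, and peaks close together may vary as one. All 10060 WT domains over 5 kb overlapped an SS peak, and 11696 of 11703 SS domains overlapped a WT peak. For islands of 1 to 5 kb the shares were 92.9% of WT and 80.8% of SS peaks, between 500 bp and 1 kb 62.2% and 38.6%, and under 500 bp 44.5% and 23.0%. A longer peak has more chance to touch another, so the share of bases was set beside it: SS peaks covered 93.3% of the sequence of WT domains over 5 kb and 36.4% of that of WT peaks under 500 bp. WT peaks covered 87.4% of the sequence of SS domains and 18.0% of that of short SS peaks. Within a length class, peaks of higher fold overlapped more often. In SS islands of 1 to 5 kb the share rose from 61.7% in the lowest of 4 equal groups by fold to 94.7% in the highest, and in WT islands from 83.4% to 98.6%.

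A domain of one genotype was usually a domain in the other. The SS peak with the largest overlap was itself over 5 kb for 8498 of the 10060 WT domains (84.5%), and 1 to 5 kb long for 1555 of them (15.5%). For SS domains the WT partner was over 5 kb in 8258 of 11703 (70.6%) and 1 to 5 kb long in 3358 (28.7%). The limit at 5 kb falls where peaks are common: 1492 WT and 1762 SS peaks lay between 4500 and 5000 bp, and 1279 and 1426 between 5001 and 5500 bp. Much shorter partners were rare: the partner was 500 bp to 1 kb long for 7 WT and 69 SS domains, and under 500 bp for 11 SS domains. Short peaks behaved differently, as 77.0% of SS and 55.5% of WT peaks under 500 bp had no partner at all.

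The bases called in both genotypes came to 181 Mb, 77.0% of the WT and 63.8% of the SS length. A further 103 Mb was called in SS cells alone and 54.1 Mb in WT cells alone. In SS cells 45.0 Mb of this (43.8%) lay in peaks with no WT overlap, 39.9 Mb (38.8%) beyond the outer edges of WT peaks that they overlapped, and 17.9 Mb (17.4%) in gaps between WT peaks. In WT cells the same 3 parts were 19.5 Mb (36.0%), 23.9 Mb (44.2%) and 10.7 Mb (19.8%). Each of the 3 places held more sequence in SS than in WT cells. The stretches were short, with median lengths of 468 bp in SS and 387 bp in WT cells.

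When the peaks of both lists were merged into blocks, 51370 blocks held exactly 1 WT and 1 SS peak, 83002 held an SS peak alone and 40765 a WT peak alone. Among the 12276 blocks with a peak over 5 kb, no block was WT alone and 7 were SS alone. There, 4097 blocks joined several WT peaks under 1 SS peak, whereas 1966 joined several SS peaks under 1 WT peak. The first kind merged 10319 WT peaks and the second 4567 SS peaks. A further 3755 long blocks were matched 1 to 1, and 2451 held several peaks of each genotype. Over all 12276 blocks there were 22894 WT and 18447 SS peaks, with 133 and 142 Mb covered. These counts depend on which list defines a long block, a split added after the data were seen. In the 9045 blocks with a WT peak over 5 kb, 1920 joined several WT peaks under 1 SS peak and 1962 several SS peaks under 1 WT peak. In the 10884 blocks with an SS peak over 5 kb the counts were 4096 and 1084, and in the 7653 with both they were 1919 and 1080. The excess of blocks that joined several WT peaks was thus not seen when the WT list set the blocks, which held 15377 WT and 14712 SS peaks.

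The edges of domains lay slightly further out in SS cells. In the 3755 domains matched 1 to 1 with a length over 5 kb in either genotype, the SS edge was outside the WT edge at 4472 of 7510 edges (59.5%), inside at 3029 (40.3%) and at the same base at 9. The median shift was 93.5 bp outward, with quartiles of -194 and 537 bp. This is less than the shortest peak of 155 bp, and 27.7% of edges agreed to within that length. A shift of at most 1 kb was found at 84.9% of edges. Larger shifts were more often outward, with 828 edges over 1 kb outward and 303 over 1 kb inward. Left and right edges gave like values, with medians of 90.0 and 97.0 bp and outward shares of 59.3% and 59.8%.

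Both edges were outward in 1353 of these domains (36.0%), both inward in 633 (16.9%), and in 1760 (46.9%) the domain was displaced to one side. Spearman's rho between the shifts of the left and the right edge was 0.0632 over the 3755 pairs of 2 libraries. The SS peak was the longer in 2392 domains (63.7%), with median lengths of 7078 bp in SS and 6785 bp in WT cells. Length and fold themselves ranked the domains alike in both genotypes, with rho of 0.890 and 0.902. Choosing domains by the WT length alone gave a median of 43.0 bp outward, and by the SS length alone 123 bp, so part of the size depends on which list defines a domain. Among domains over 5 kb in both it was 67.0 bp. Pairs defined as each other's largest overlap, 12791 domains, gave 236 bp, and a common -log10 q-value cutoff gave 257 bp.

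Edge position varied with domain strength and size. Domains were ranked by fold in 3 equal groups. In the group with the lowest WT fold, edges differed by a median of 467 bp in either direction and 77.7% agreed within 1 kb. In the group with the highest WT fold, the values were 320 bp and 89.5%. Ranking by SS fold gave 479 bp and 77.3%, and 313 bp and 89.9%. The outward shift was largest in the group of lowest fold, 146 bp by WT fold and 164 bp by SS fold. It did not fall further from the middle to the highest group. These 2 groups had 69.5 and 79.0 bp by WT fold, and 70.0 bp each by SS fold. By mean length of the pair, the median shift was 4.00 bp outward under 500 bp, 39.0 bp between 500 bp and 1 kb, 103 bp for 1 to 5 kb and 77.0 bp over 5 kb. In the 187 pairs over 20 kb it was 36.5 bp, with 57.8% of edges outward. The islands of 1 to 5 kb thus had the largest median shift.

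**Figure D3:**
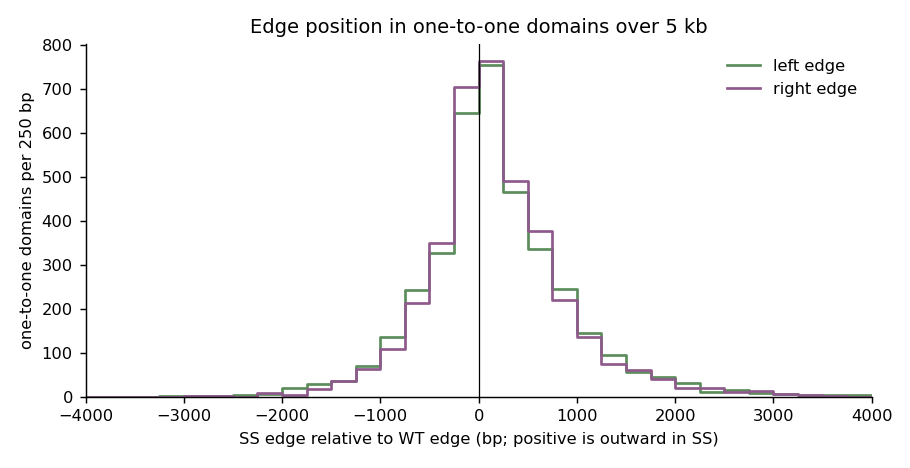
Position of the SS edge relative to the WT edge in bp (horizontal axis, positive is outward in SS) for the left and right edges of 3755 domains matched 1 to 1, counted per 250 bp (vertical axis). Both curves peak near 0 and have the heavier tail on the outward side, where 828 edges lie over 1 kb out, against 303 inward.

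The domain with the largest outward change lay on chromosome 9, where a WT peak of 324 bp at 63367536-63367859 was set against an SS peak of 8455 bp at 63364542-63372996, both with a fold of 2.68. The next were on chromosome 1 at 189703660-189709947 (6288 bp in SS, 473 bp in WT cells) and on chromosome 13 at 98881118-98888806 (7689 and 1882 bp). On chromosome 13 at 37661460-37668123 the lengths were 6664 and 1028 bp, and on chromosome 1 at 171521071-171527700 they were 6630 and 1185 bp. Folds in these 5 domains lay between 2.63 and 3.13, below the medians of 3.28 (WT) and 3.50 (SS) of all domains matched 1 to 1. The SS folds, 2.63 to 2.83, were also below the SS median of 3.20 for peaks of 5 to 10 kb. The WT peaks measured only 324 to 1882 bp, and their folds, 2.68 to 3.13, were not low for that length. The WT medians were 2.43 at 300 to 500 bp and 2.61 at 1 to 2 kb. The largest inward changes were smaller. On chromosome 12 a WT peak of 5856 bp at 103319934-103325789 met an SS peak of 1212 bp, a summed shift of -4644 bp over both edges, against 8131 bp in the leading outward domain. On chromosome 17 the peak at 44278726-44287285 went from 8560 bp in WT to 4447 bp in SS cells. The remaining 3, on chromosomes 9, 1 and 7, went from 8728 to 5016 bp, from 5217 to 1639 bp and from 5358 to 1815 bp.

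Regions defined without either proliferating list were covered nearly alike. Peaks over 5 kb of the arrested H3K27me3 lists, from serum-deprived cells of both genotypes, formed 2909 regions of 25.4 Mb, of which proliferating WT peaks covered 97.9% and proliferating SS peaks 98.7%. In 2006 regions the coverage was equal, and in 2005 it was complete in both genotypes. SS peaks covered more in 570 regions and WT peaks in 333. Nearly all of these regions, 2905 peaks, came from the arrested SS list and 160 peaks from the arrested WT list. Regions from the arrested WT list alone were covered to 99.4% and 99.6%. In flanks of 10 kb on each side, WT peaks covered 63.2% and SS peaks 67.6%. Over all autosomal sequence outside the regions, with the flanks counted in, the shares were 8.79% and 10.8%. Flanks of the regions from the arrested WT list alone were covered to 82.8% and 84.5%. Coverage inside the regions was near its ceiling in both genotypes, so the size of the difference inside cannot be set against that outside.

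Across the edges of arrested SS peaks over 5 kb, coverage fell in step in both genotypes. In the 250 bp just inside the edge it was 92.3% in WT and 94.5% in SS cells, and in the 250 bp just outside 88.0% and 90.9%. At 1 kb outside it was 78.3% and 82.4%, at 5 kb 68.3% and 71.8%, and at the last bin before 20 kb 53.3% and 57.5%. SS coverage exceeded WT coverage at each of these distances. Around the edges of the 160 arrested WT peaks over 5 kb the values lay closer together, 94.6% and 95% at 1 kb and 84.6% and 85.4% at 5 kb, and between 500 and 750 bp WT coverage was the higher, 95.7% and 95.5%. Seen from the edges of the proliferating WT peaks over 5 kb, SS peaks covered 75.1% of the first 250 bp inside and 60.6% of the first 250 bp outside. Seen from the edges of the SS peaks, WT peaks covered 59.1% inside and 43.6% outside. The drop across the edge was similar, and the level of SS coverage around WT edges was higher than that of WT coverage around SS edges. A list that sets the edges has full coverage inside them and none just outside by construction.

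**Figure D4:**
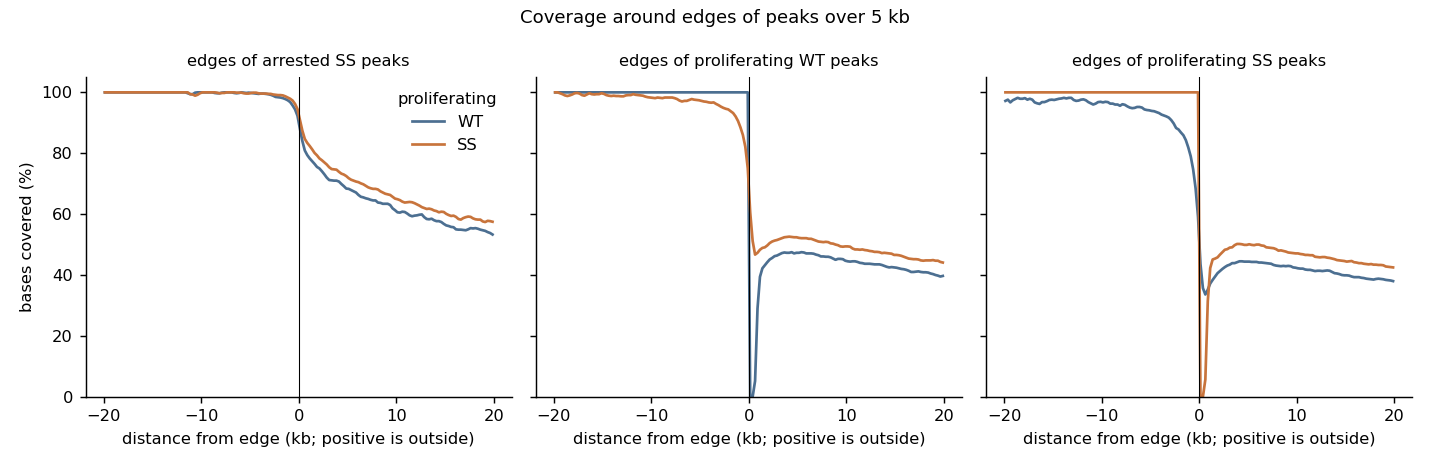
Share of bases covered (%) by proliferating WT and SS peaks in 250 bp steps against distance in kb from the edges of peaks over 5 kb, for edges of the arrested SS list (left), the proliferating WT list (middle) and the proliferating SS list (right). In the left panel, whose edges use neither proliferating list, coverage falls from 92.3% and 94.5% just inside to 53.3% and 57.5% near 20 kb, with SS above WT outside the edge. A proliferating list that sets the edges stands at 100% inside and 0% just outside by construction.

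Peaks seen in one genotype alone were mostly short and weak, and most lay within 5 kb of a peak of the other. The 83002 SS peaks without WT overlap had a median length of 439 bp and a median fold of 2.50, against 2.78 for SS peaks with an overlap. The 40765 WT peaks without SS overlap had 401 bp and 2.46, against 2.67. Their median distance to the nearest peak of the other list was 2563 bp for SS and 1141 bp for WT peaks. Peaks were dense throughout, with a median gap between neighbours of 2450 bp in the WT and 2348 bp in the SS list. The distance to be had from density alone was not computed, and the SS list, which sets the WT distances, holds more peaks. Within 5 kb of a peak of the other genotype lay 64.5% of the SS and 82.1% of the WT peaks. Over 50 kb away lay 6.19% and 1.40%. The longest SS peak without overlap was 6275 bp, on chromosome 15 at 11863321-11869595, followed by 6004 bp on chromosome 2 at 164312452-164318455 and 5941 bp on chromosome 19 at 53528996-53534936. The nearest WT peak was 469, 1024 and 6498 bp away. The longest WT peaks without overlap measured 3797 and 3731 bp, both on chromosome 14, at 118497645-118501441 and 69113371-69117101, and 3682 bp on chromosome 5 at 32724731-32728412. The first 2 of them were covered to 37.7% and 40.4% by arrested SS peaks and to 23.0% and 0 by arrested WT peaks. The third was listed at 0 in both arrested lists. For the 3 longest SS peaks without overlap, arrested SS peaks covered 8.25%, 16.5% and 0, and arrested WT peaks 6.33%, 7.59% and 2.24%.

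In the arrested H3K27me3 lists, bases shared by the proliferating genotypes were covered more than bases called in 1 of them. Arrested SS H3K27me3 peaks covered 50% of the shared bases, 16.9% of the bases called in proliferating WT alone, 16.2% of those called in proliferating SS alone and 2.08% of the autosomes outside both. Arrested WT peaks covered 27.4% of the shared bases, 14.2% of those in proliferating WT alone and 5.47% outside both. By length class, arrested SS peaks covered 60.0% of WT and 56.4% of SS domains over 5 kb, and 15.2% and 11.5% of peaks under 500 bp. Ezh2, assayed in serum-deprived cells, ran the other way with length: Ezh2 WT peaks covered 3.50% of WT domains over 5 kb and 4.40% of WT peaks under 500 bp, against 3.19% outside both lists. Ezh2 coverage of bases called in 1 genotype was the same in both for the Ezh2 WT list, 3.84%, and 5.94% and 5.86% for the Ezh2 SS list. The pRb lists covered 0.460% to 5.51% of sequence outside and 0.508% to 5.95% of shared bases, each covering less outside than on shared bases. The fall with length was also seen for pRb, as the arrested SS pRb list covered 6.76% of WT peaks under 500 bp and 5.72% of WT domains over 5 kb. Ezh2 and the arrested lists come from serum-deprived and not from proliferating cells.

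Every autosome held more peaks and more covered length in SS cells, to a degree that differed by chromosome. The covered length ratio ran from 1.16 on chromosome 19 and 1.17 on chromosomes 11 and 2 to 1.29 on chromosome 18 and 1.30 on chromosome 3. On chromosome 3 the covered length was 9.13 Mb in WT and 11.8 Mb in SS cells, and on chromosome 19 it was 7.57 and 8.76 Mb. The lowest shares were those of chromosome 3, 5.83% (WT) and 7.55% (SS), and the highest those of chromosome 11, 15.1% and 17.6%. The difference in percentage points was smallest on chromosome 16, 1.45, and largest on chromosome 11, 2.53. The ratio and the difference therefore ordered chromosomes in opposite ways: Spearman's rho with the share covered in WT was -0.856 for the ratio and 0.679 for the difference, over 19 chromosomes of 1 library per genotype, with the WT length in both measures. Against the mean share covered in the 2 arrested lists, which hold neither library, rho with the ratio was -0.830, and -0.609 when the lists had equal length. That mean ordered the chromosomes almost as the WT share did, with rho of 0.986, so it is hardly a separate ordering.

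Peak number was higher in SS cells in each length class of each chromosome. The number ratio exceeded 1 on 19 of 19 chromosomes in every class, from 1.25 to 1.47 under 500 bp and from 1.02 to 1.31 over 5 kb. It fell at every step of length on 12 chromosomes and did not on 7. Chromosome 19 had the lowest ratio of domains, 1.02, and its share of length in domains over 5 kb was 52.1% in WT but 46.3% in SS cells. Chromosome 3 had the highest ratios both under 500 bp (1.47) and over 5 kb (1.31). Domain edges were outward on all 19, with medians from 41.5 bp on chromosome 15 to 178 bp on chromosome 10 and outward shares from 54.0% to 64.3%. Overlap of WT peaks with the SS list ran from 64.0% on chromosome 3 to 73.0% on chromosome 11. Median fold hardly varied among chromosomes, from 2.56 to 2.62 in WT and from 2.59 to 2.66 in SS cells.

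**Figure D5:**
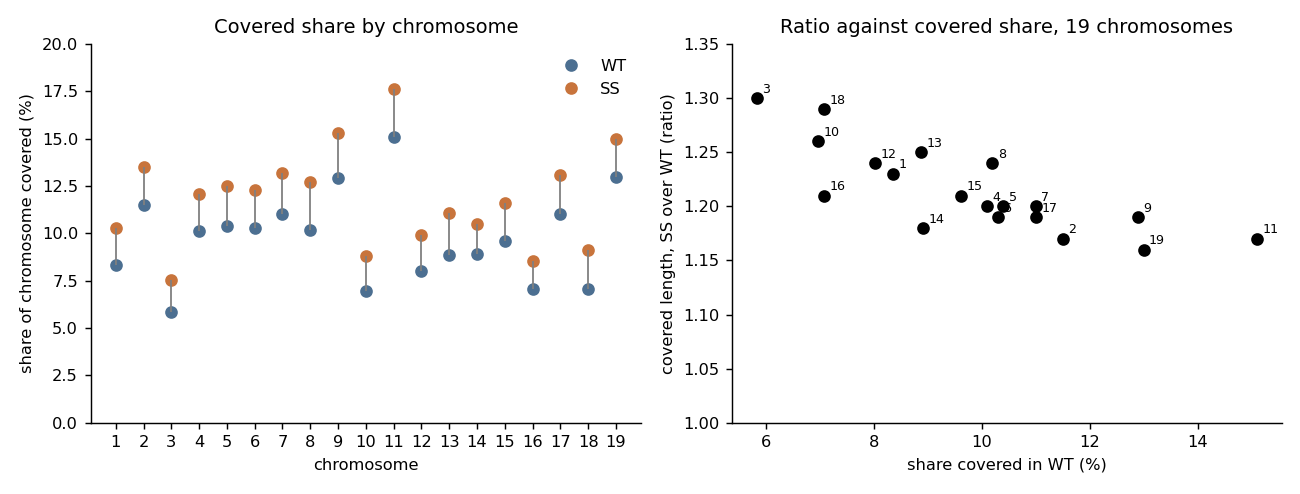
Left, the share of each of 19 chromosomes covered (%) in WT and SS cells. Right, the ratio of covered length, SS over WT, against the share covered in WT (%), with each point labelled by its chromosome; the vertical axis starts at 1. SS lies above WT on each chromosome, and the ratio is lowest on chromosomes 19 and 11 and highest on chromosomes 3 and 18.

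Gains of coverage were widespread and modest, and losses few. The autosomes were cut into 100 kb bins, of which 24020 held a peak of at least 1 list. SS coverage was higher by at least 10 percentage points in 849 (3.53%) and lower by that much in 13 (0.0541%). The median difference was 0.788 points, with 16245 bins (67.6%) more covered in SS, 3398 (14.1%) more covered in WT cells and 4377 equal. A difference of at least 20 points was reached by 21 bins upward (0.0874%) and 1 downward (0.00416%). With equal list lengths there were 455 gains and 29 losses, and at the common -log10 q-value cutoff 2824 and 2. The gains lay on all 19 chromosomes, from 1.81% of the bins of chromosome 10 to 5.19% of those of chromosome 8.

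Bins were then ranked in 5 equal groups by the mean coverage in the arrested lists, which the compared libraries do not set. In the least covered group, mean coverage was 0.240% in WT and 0.455% in SS cells, a ratio of 1.90. In the most covered group it was 36.1% and 40.8%, a ratio of 1.13, and the groups between had ratios of 1.77, 1.56 and 1.35. Gains of at least 10 points were found in 638 bins (13.3%) of the most covered group and in 0 of the least covered, beside 3.53% of all bins. The relative excess was thus largest where the mark was sparse, and the excess in points where it was dense. Gained bins were covered to a median of 24.5% in WT and 37.8% in SS cells, while all bins had medians of 1.93% and 3.51%. In arrested cells, SS coverage exceeded WT coverage in 605 of these 849 bins (71.3%) and in 9 of the 13 losing bins (69.2%), against 22.1% of all bins. The gained bins had more arrested coverage than most bins in both genotypes, with medians of 12.2% (WT) and 15.2% (SS), beside 6.17% and 2.46% over all bins. The share was not taken among bins of like coverage. The 71.3%, which is near the 69.2% of the losing bins, therefore cannot be told apart from the higher coverage of the gained bins.

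The largest gains formed a pair of neighbouring bins on chromosome 6, at 114400001-114500000, from 26.2% to 58.7%, and 114500001-114600000, from 11.8% to 60.2%. Arrested WT peaks covered 2.47% of the second of these bins, and arrested SS peaks 4.95%. The next gains were on chromosome 5 at 129800001-129900000, from 24.9% to 52.0%, on chromosome 9 at 119500001-119600000, from 14.3% to 38.5%, and on chromosome 2 at 145100001-145200000, from 35.0% to 58.5%. The largest losses were also neighbours, on chromosome 9 at 46700001-46800000, from 48.7% to 31.1%, and 46800001-46900000, from 43.0% to 20.1%. In arrested cells these 2 bins were covered to 8.01% and 10.1% in WT, and to 20.6% and 20.5% in SS cells. The remaining losses were smaller, on chromosome 14 at 69900001-70000000 (30.7% to 18.5%) and 34400001-34500000 (39.2% to 27.4%) and on chromosome 16 at 33700001-33800000 (15.2% to 3.84%). Gained bins formed 676 runs of neighbours, of which 35 had 3 bins or more. The longest run spanned 6 bins on chromosome 3 at 52200001-52800000, from 36.7% to 51.4%, and the runs named here were chosen after their values were seen. Runs of 5 bins lay on chromosome 1 at 186000001-186500000 and on chromosome 15 at 73600001-74100000, with 35.2% and 35.8% in WT against 50.9% and 47.8% in SS cells. The longest runs of losses had 2 bins.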

How the data were processed

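Chromatin was cross-linked, sonicated and immunoprecipitated with an H3K27me3 antibody, per the labels' protocols. The submitters' processing notes name mm9 as the build, and MACS2, Bowtie2, bedtools and HOMER as tools, without versions, roles or settings; the control used is not given in the sources used here. Each deposited list of 9 columns holds a score, a fold enrichment as a ratio, and -log10 p-values and -log10 q-values from the authors' caller; the 4 deposited pRb lists hold a score of unstated unit. Read counts were not used, so depth per library is unknown, and 10 input libraries were left out, not analysed here.

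Groups came from the sample titles. Class limits were 500 bp, 1 kb and 5 kb. Peaks overlapped from 1 bp; blocks are merged peaks of both lists; domain edges came from blocks with 1 peak of each genotype. Bins measured 100 kb. Regions named were the 3 longest peaks, the 3 longest without overlap and the highest fold per class in each list, the 5 largest edge changes and bins in each direction, and the extreme chromosomes. With 1 library per group no test was made. The interval steps were tested on simulated lists. Members and measures were chosen with earlier results of these data known. Alternatives were common cutoffs on q-value or, added after the data were seen, fold, equal list lengths, merging within 1 kb, peaks of at least 500 bp, 50% reciprocal overlap, other pairs, bins and thresholds. Interval arithmetic ran in numpy 2.4.6 and pandas 2.3.3 under Python 3.11.15, intervals in scipy 1.17.1 and plots in matplotlib 3.10.9.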

Additional observations from a re-analysis of the deposited data

Results flagged for a closer look

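The genotype difference on the autosomes pointed one way in proliferating and the other in arrested cells, with 1 library in each of the 4 groups, and the difference between the conditions was not tested. The ratio of peak number, SS over WT, was 1.27 in proliferating and 0.330 in arrested cells. The ratio of covered length was 1.21 and 0.863. Under 500 bp the number ratio was 1.35 and 0.217, and between 500 bp and 1 kb 1.27 and 0.678. Longer peaks did not split: the ratio for 1 to 5 kb was 1.22 and 1.38, and for domains over 5 kb 1.16 and 18.2, the last from 160 arrested WT and 2905 arrested SS domains. The arrested WT list held 524467 peaks under 500 bp, against 114058 in the arrested SS list.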

How the results depend on the processing

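With equal list lengths the number ratio of the 2 classes under 1 kb turned, to 0.951 under 500 bp and 0.868 from 500 bp to 1 kb. That setting left the WT list whole and dropped only SS peaks, so it could not raise these ratios. The ratio of long blocks that joined several WT peaks to those that joined several SS peaks was 2.08, and turned to 0.979 when the WT list set the blocks; it was 3.78 with the SS list and 1.78 with both. No other ratio, count or edge shift recomputed here changed direction. Of 47 other recomputed values, 8 stayed within counting error, within 1.5 times a count or at the same printed value, and 39 moved. The peak number ratio (1.27) was 2.38 at the common -log10 q-value cutoff, 1.00 by construction with equal list lengths, 1.23 for peaks of at least 500 bp and 1.37 at the common fold cutoff. The covered length ratio (1.21) was 1.57, 1.12, 1.20 and 1.23 in the same order. The share of WT peaks overlapping an SS peak (68.9%) was 74.4%, 63.1%, 74.2% and 66.1%, and 25.7% with 50% reciprocal overlap. The share of SS peaks (50.2%) was 31.6%, 56.9%, 56.5%, 45.7% and 20.2%. The median edge shift (93.5 bp outward) was 257 bp at the q-value cutoff, 83.0 bp with equal lists, 177 bp with merging within 1 kb, 236 bp for pairs by largest overlap and 167 bp at the fold cutoff. Gaining bins (849) numbered 2824 at the q-value cutoff, 455 with equal lists, 2785 of 48001 bins at 50 kb and 21 at 20 points; losing bins (13) numbered 2, 29, 82 and 1, and 21 at the fold cutoff. Coverage of regions from arrested peaks in WT (97.9%) was 97.0% at the q-value cutoff, 97.6% at the fold cutoff and 99.5% for regions over 10 kb; in SS (98.7%) it was 98.5%, 98.5% and 99.6%, and 98.6% with equal lists. All 19 chromosomes kept more covered length in SS under each setting tried for them. The cause of these moves was not tested, apart from thresholds that by construction leave fewer bins or peaks. Depth, which the lists do not give, limits every ratio of number or length. No paired analysis was possible because each group had 1 library.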
